A study of Mus musculus with 8 samples.

Results

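The serpin and plasminogen system genes were described here in NMuMG cells, a subclone of an untransformed mouse mammary gland epithelial line that undergoes epithelial-mesenchymal transition (EMT) under TGFβ. The members were all genes with a serpin symbol of clades A to I, together with Plau, Plat, Plaur and Plg, that were measured by an array probe set with a single gene symbol. 52 of the 19937 genes tested fulfilled this, 48 serpins and the 4 genes of the plasminogen system. RNA was profiled on 8 Affymetrix whole-transcript gene arrays in 4 groups of 2, namely siKlf4 with TGFβ, siControl with TGFβ, siKlf4 without TGFβ and siControl without TGFβ. All groups were transfected with siRNA, either a pool of 2 siRNAs against the transcription factor Klf4 (siKlf4) or control siRNA (siControl), and siRNA acts transiently. TGFβ was given at 2 ng/ml for 2 days. Whether the replicate arrays stem from independent transfections is not given in the sources used here, so the p-values reflect the variation between arrays and that variation may be technical.

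Serpins are proteins of one fold, most of which trap a serine or cysteine protease by offering it a bait loop that locks the enzyme in an inactive complex. Clade A members such as the antitrypsins are secreted, largely by the liver, whereas clade B members mostly stay in the cytosol and nucleus and guard cells against proteases of their own granules and lysosomes or of attacking lymphocytes. The plasminogen system turns the circulating zymogen plasminogen into plasmin through tissue-type and urokinase-type activators, and it dissolves fibrin and loosens extracellular matrix around migrating cells. In mice, several serpin genes have multiplied into local arrays of near copies, and a probe set for one copy can also bind the RNA of another, so values of single copies in the Serpina1, Serpinb6 and Serpinb9 groups are uncertain in that respect.

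The values are log2 array values made by RMA (Robust Multi-Array, which corrects background, equalizes the arrays and summarizes the probes of a probe set). A difference of 1 is a doubling, and levels were not compared between genes because probe sets differ in brightness. The arrays were even in scale, with medians between 4.902 and 5.002. To place dim signals, the 1015 odorant receptor genes, which epithelial cells hardly use, served as a landmark chosen after the data were seen. Their 95th percentile was a mean log2 value of 4.39, and 15 members lay above it while 37 did not, so most serpins were read at the brightness of genes that are mostly silent. Where only one of the groups compared lay above the landmark, the log2 difference is one of measured values, and a fold is given as a lower bound, with the dim arrays set at the landmark. Of 8 epithelial markers, 6 lay above this landmark, among them Krt8, Krt18 and Cdh1, and their list averaged 8.88 to 8.93 in siKlf4 arrays with TGFβ, 8.77 to 8.82 in siControl arrays with TGFβ, 8.84 to 8.97 in siKlf4 arrays without TGFβ and 8.76 to 8.82 in siControl arrays without TGFβ. Epcam and Esrp1 did not lie above it. Of 7 measured leukocyte markers, 3 did (Cd3e, Cd68 and Csf1r), but Ptprc did not. Of 6 hepatocyte markers, 2 did (Apoa1 and Tat), but Alb did not. Of 6 endothelial markers, 1 did (Tie1).

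Klf4 itself had log2 values of 8.03 and 7.91 in arrays labelled siKlf4, against 8.60 and 8.43 in arrays labelled siControl, without TGFβ (difference -0.54, SE 0.10, limma adjusted p = 0.00369). With TGFβ, it had 7.43 and 7.24 in arrays labelled siKlf4 and 7.46 and 7.46 in arrays labelled siControl, a difference of -0.13 that did not pass (limma adjusted p = 0.444). The difference in Klf4 passed the test without TGFβ only, and with TGFβ every difference below is one between arrays labelled siKlf4 and arrays labelled siControl. Under TGFβ, Klf4 was also lower in siControl arrays (-1.05, limma adjusted p = 0.000357).

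Of the 52 members, 9 were higher and 3 lower in arrays labelled siKlf4 than in arrays labelled siControl with TGFβ, and 7 were higher and 4 lower without TGFβ, at a limma adjusted p under 0.05. As a share of members this is 23.1% with TGFβ and 21.2% without, beside 24.2% and 19.7% of all genes tested. Members called higher were 17.3% with TGFβ and 13.5% without, beside 12.3% and 9.98% of all genes, and members called lower were 5.77% and 7.69%, beside 11.9% and 9.71%. The one-way analysis of variance, here unmoderated t-tests of the same contrasts, was run as an alternative. By it, Serpinb1b and Serpinf1 lost their calls with TGFβ (adjusted p = 0.132 and 0.148). Serpina1c, Serpinf1, Serpinb9c and Serpinb1a lost theirs without TGFβ (adjusted p = 0.0597, 0.0877, 0.108 and 0.133). The median difference over the members was 0.02 with TGFβ and 0.01 without, and over all genes -0.03 and 0.00. The family as a whole therefore lay near the background, and most of the differences sat in groups of neighbouring copies, as the plot of all members shows. RNA came from whole cultures, in which fewer cells of a type and less RNA per cell cannot be told apart.

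**Figure D1:**
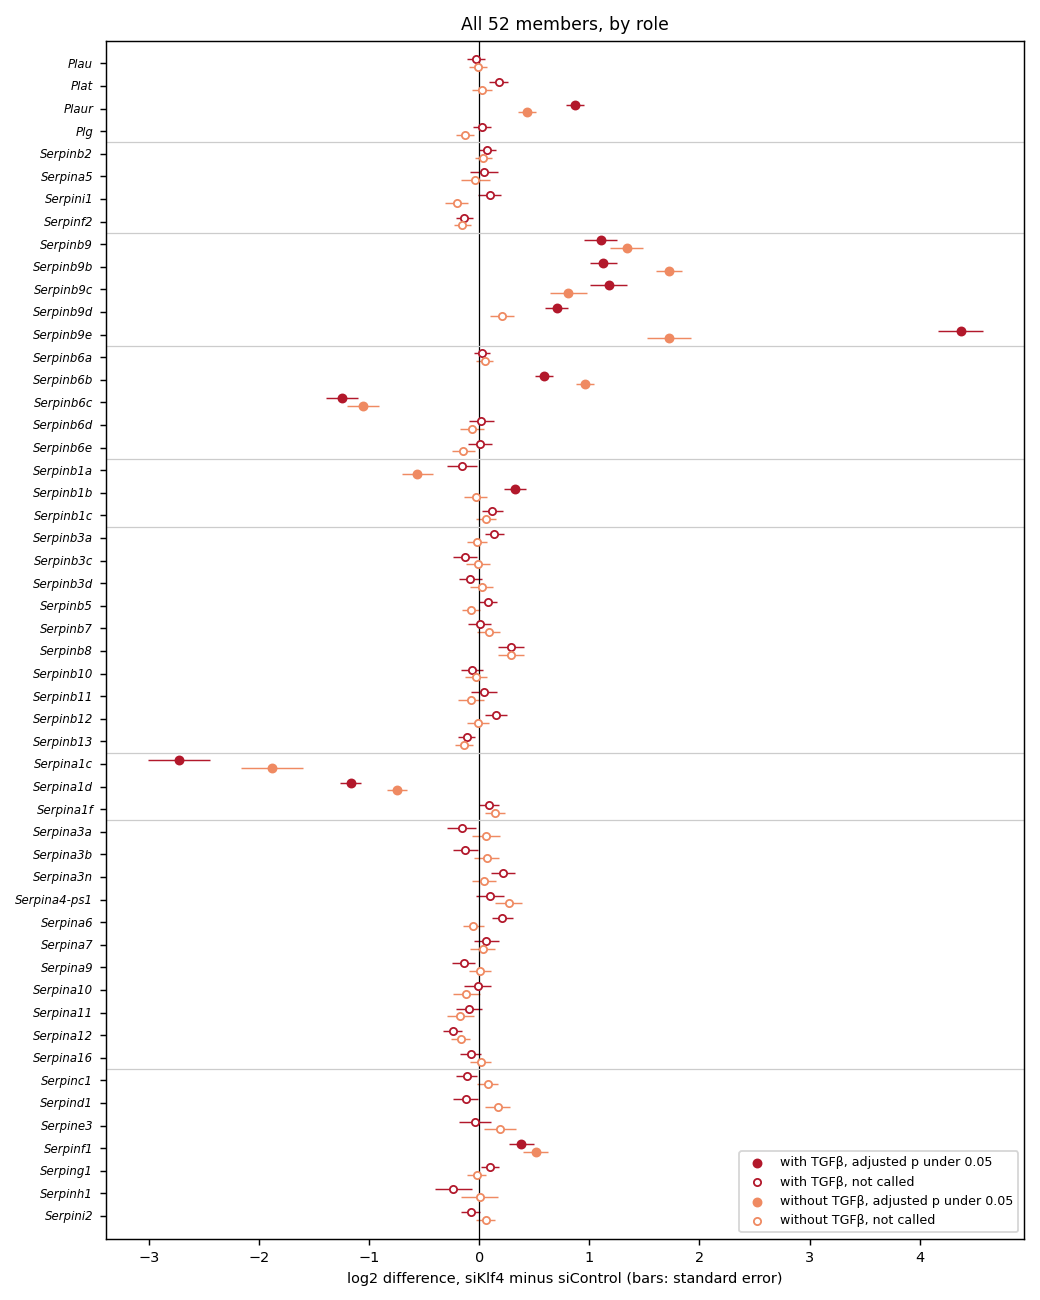
Log2 difference, siKlf4 minus siControl (x axis), of each of the 52 members (y axis, grouped by role with grey lines between roles), with TGFβ (dark) and without (light). Points are limma estimates, bars their standard errors, and filled points passed an adjusted p of 0.05. Serpinb9e at 4.37 with TGFβ and Serpina1c at -2.73 with TGFβ lie farthest from 0.

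The activators, the zymogen and the receptor were taken first. Plaur, the urokinase receptor that holds urokinase on the cell surface by a lipid anchor, was the member of these 4 that moved. It had 10.26 and 10.30 in siKlf4 arrays with TGFβ, against 9.46 and 9.36 in siControl arrays with TGFβ, a 1.83-fold increase (difference 0.87, SE 0.08, limma adjusted p = 5.03e-05). Its values without TGFβ were 10.36 and 10.37 in siKlf4 arrays, against 9.99 and 9.88 in siControl arrays (difference 0.43, SE 0.08, limma adjusted p = 0.00461). In both pairs every siKlf4 array was above every siControl array. TGFβ itself lowered Plaur in siControl arrays by 0.53 on the log2 scale (limma adjusted p = 0.00344), while in siKlf4 arrays the difference was -0.09 and did not pass (limma adjusted p = 0.621). The test of the difference between these 2 responses gave 0.44 and did not pass either (limma adjusted p = 0.123).

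Plat, which encodes tissue-type plasminogen activator, had 9.59 and 9.58 in siKlf4 arrays with TGFβ and 9.40 and 9.42 in siControl arrays with TGFβ. The arrays did not overlap, but the difference of 0.18 did not pass the test (limma adjusted p = 0.216, 95% interval from -0.03 to 0.38). Without TGFβ, Plat had 9.44 and 9.50 in siKlf4 arrays and 9.55 and 9.34 in siControl arrays, with the siKlf4 arrays between the siControl arrays. Plau, which encodes urokinase, was dim in all groups, with 3.67 and 3.77 in siKlf4 arrays with TGFβ, 3.70 and 3.79 in siControl arrays with TGFβ, 3.62 and 3.56 in siKlf4 arrays without TGFβ and 3.57 and 3.63 in siControl arrays without TGFβ. Plg, which encodes plasminogen and is a liver gene, was also dim, with group means between 3.95 and 4.08. Neither Plau nor Plg lay above the odorant receptor landmark, so a change of either may not be readable on these arrays. For Plau the 95% intervals of the difference ran from -0.21 to 0.16 with TGFβ and from -0.19 to 0.18 without.

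No inhibitor of plasmin or of its activators among the members passed in either siKlf4 comparison by limma, and 0 of the 4 had an unadjusted p under 0.05. Serpinf2, the plasmin inhibitor α2-antiplasmin, had 5.71 and 5.77 in siKlf4 arrays with TGFβ and 5.92 and 5.84 in siControl arrays with TGFβ. Without TGFβ, it had 5.71 and 5.73 in siKlf4 arrays and 5.87 and 5.88 in siControl arrays. The siKlf4 arrays lay below the siControl arrays in both pairs, by differences of -0.14 and -0.15 that did not pass (limma adjusted p = 0.265 and 0.231). Serpini1, neuroserpin, an inhibitor of tissue-type plasminogen activator known from the nervous system, differed by 0.10 with TGFβ and -0.21 without (limma adjusted p = 0.606 and 0.241). TGFβ lowered Serpini1 in siControl arrays, which had 4.12 and 4.37 with TGFβ, against 4.68 and 4.61 without (difference -0.40, SE 0.10, limma adjusted p = 0.0366), and this call was lost when any of 5 single arrays was left out. The siControl arrays with TGFβ lay below the odorant receptor landmark for Serpini1, so its fall was at least 1.199-fold. Serpinb2, plasminogen activator inhibitor type 2, and Serpina5, the protein C inhibitor, stayed at the brightness of silent genes, with log2 values between 3.28 and 3.41 and between 3.41 and 3.83.

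The clearest change was in the Serpinb9 group. Serpinb9 is the mouse counterpart of the human granzyme B inhibitor PI-9, which protects lymphocytes and their bystanders from the granule protease granzyme B, and the mouse genome carries a row of further copies beside it. All 5 measured members were higher in siKlf4 arrays with TGFβ and 4 were higher without TGFβ, read against the 12.3% and 9.98% of all genes called higher. The median difference of the 5 was 1.13 with TGFβ and 1.34 without.

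**Figure D2:**
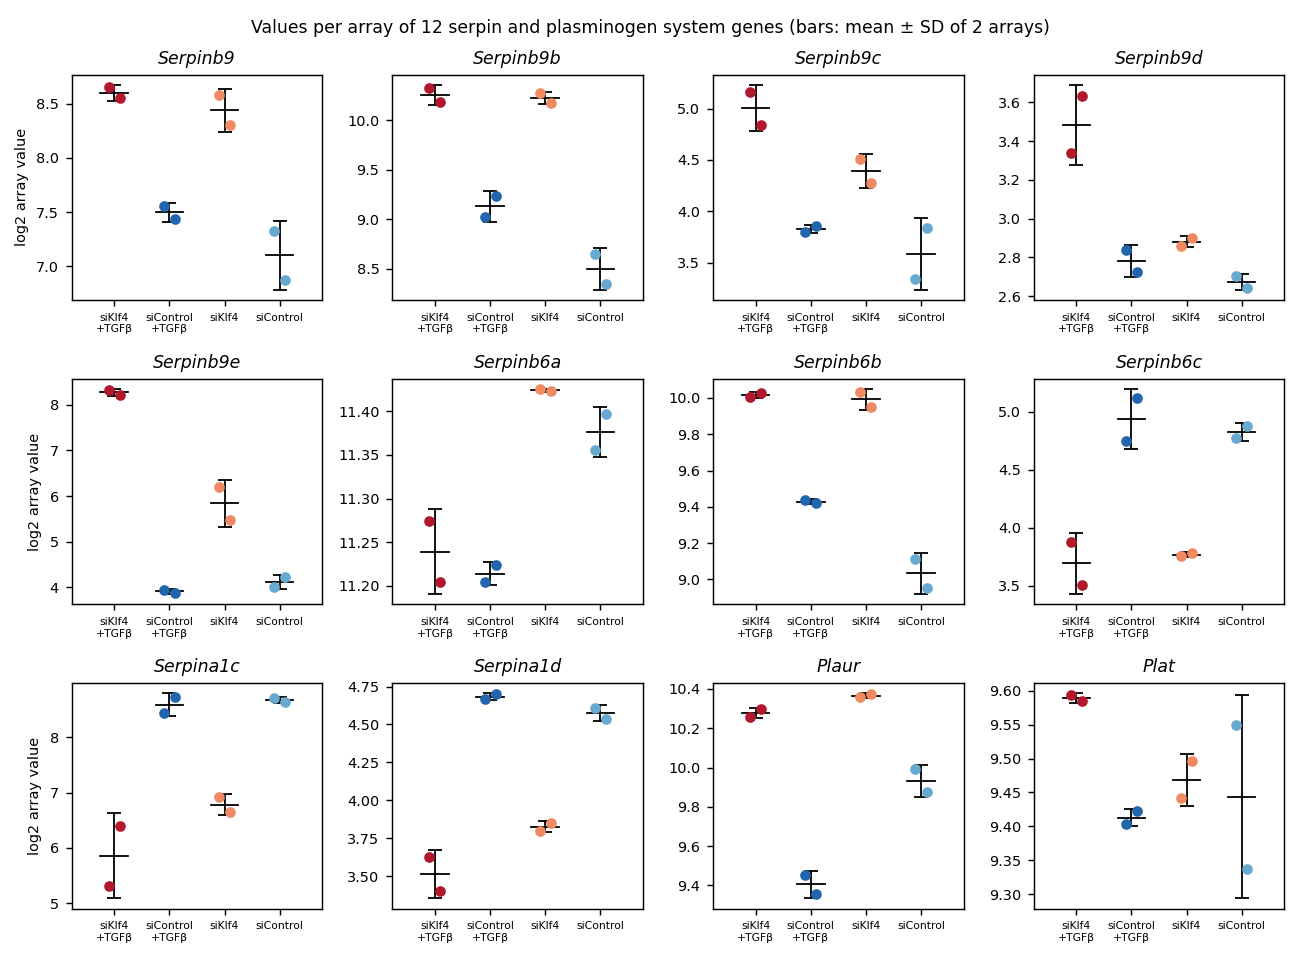
Log2 array value (y axis, a separate scale in each panel that does not start at 0) of 12 members in the 4 groups (x axis). Dots are single arrays, the line is the mean and the bars the SD of 2 arrays. In the Serpinb9, Serpinb9b, Serpinb9e and Serpinb6b panels both siKlf4 groups lie above both siControl groups, and the reverse holds for Serpina1c, Serpina1d and Serpinb6c.

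Serpinb9 had 8.65 and 8.55 in siKlf4 arrays with TGFβ, against 7.56 and 7.44 in siControl arrays with TGFβ, a 2.15-fold increase (difference 1.10, SE 0.15, limma adjusted p = 0.000529). In the absence of TGFβ, it had 8.58 and 8.30 in siKlf4 arrays, against 7.33 and 6.88 in siControl arrays, a 2.53-fold increase (difference 1.34, SE 0.15, limma adjusted p = 0.000222). Every siKlf4 array lay above every siControl array. Outside the plasminogen core, changed members were named by a rule that required arrays without overlap. Such separation therefore adds no support here or for those below. Serpinb9b, a copy next to it, had 10.33 and 10.18 in siKlf4 arrays with TGFβ, against 9.02 and 9.24 in siControl arrays with TGFβ (difference 1.13, SE 0.12, limma adjusted p = 0.000122). Without TGFβ, Serpinb9b had 10.27 and 10.18 in siKlf4 arrays, against 8.65 and 8.35 in siControl arrays, a 3.3-fold increase (difference 1.72, SE 0.12, limma adjusted p = 1.53e-05). The siKlf4 arrays reached nearly the same Serpinb9b level with and without TGFβ. In siControl arrays TGFβ raised Serpinb9b by 0.63 (limma adjusted p = 0.00983), and in siKlf4 arrays the difference was 0.03 (limma adjusted p = 0.932). The siControl call was lost without the second siControl array with TGFβ (limma adjusted p = 0.0873) and by the one-way analysis of variance (adjusted p = 0.0971). These 2 responses were not shown to differ (difference -0.60, limma adjusted p = 0.161).

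Serpinb9e, a further copy, had the largest measured difference with TGFβ. It had 8.33 and 8.22 in siKlf4 arrays with TGFβ, against 3.95 and 3.86 in siControl arrays with TGFβ, at least 14.8-fold higher (measured difference 4.37, SE 0.20, limma adjusted p = 9.65e-07). Its values without TGFβ were 6.21 and 5.46 in siKlf4 arrays, against 3.996 and 4.22 in siControl arrays, at least 2.73-fold higher (measured difference 1.73, SE 0.20, limma adjusted p = 0.000277). The siControl arrays, with and without TGFβ, all lay below the odorant receptor landmark of 4.39, and all siKlf4 arrays lay above it, with the 2 arrays without TGFβ 0.74 apart. TGFβ raised Serpinb9e in siKlf4 arrays by 2.44 (SE 0.20, limma adjusted p = 0.000123), and in siControl arrays the difference was -0.21 (limma adjusted p = 0.618). Serpinb9e was the only member that limma on all arrays called for a difference between the siKlf4 effects with and without TGFβ. The difference was 2.64 (SE 0.28, limma adjusted p = 0.00611). This is 1.92% of members, beside 1.52% of all genes called for that difference (0.547% higher and 0.978% lower). The one-way analysis of variance did not call it (adjusted p = 0.155). With trend and robust options, limma also called Plaur, Serpinb9b and Serpinb6b (adjusted p = 0.00712, 0.0189 and 0.0318). Both siControl means of Serpinb9e lay below the landmark, so its difference too is one of measured values.

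Serpinb9c lay above the odorant receptor landmark only in siKlf4 arrays with TGFβ and 1 siKlf4 array without, and Serpinb9d in none. Serpinb9c had 5.17 and 4.84 in siKlf4 arrays with TGFβ, against 3.80 and 3.85 in siControl arrays with TGFβ (difference 1.18, SE 0.17, limma adjusted p = 0.000702). Without TGFβ, it had 4.51 and 4.28 in siKlf4 arrays, against 3.34 and 3.84 in siControl arrays (difference 0.81, SE 0.17, limma adjusted p = 0.00778), and without the first siKlf4 array this call was lost at an adjusted p of 0.056. The arrays did not overlap in either pair, but the siControl arrays lay below the landmark and the fold was at least 1.54 with TGFβ and at least 1.005 without. Serpinb9d had 3.34 and 3.63 in siKlf4 arrays with TGFβ, against 2.84 and 2.72 in siControl arrays with TGFβ (difference 0.70, SE 0.11, limma adjusted p = 0.000961). Without TGFβ, Serpinb9d had 2.86 and 2.90 in siKlf4 arrays and 2.70 and 2.64 in siControl arrays, a difference of 0.21 that did not pass (limma adjusted p = 0.246). Both genes were higher with TGFβ than without it in siKlf4 arrays, by 0.61 for Serpinb9c (limma adjusted p = 0.0438) and 0.60 for Serpinb9d (limma adjusted p = 0.00527). The Serpinb9c call for TGFβ was lost when any single array of the siKlf4 or TGFβ-treated groups was left out, at adjusted p-values up to 0.275.

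Granzyme B (Gzmb), the protease that Serpinb9 inhibits, differed by -0.10 with TGFβ and 0.04 without, and neither passed (limma adjusted p = 0.692 and 0.888). The mean level of Gzmb, 3.60, lay below the odorant receptor landmark, so a change may not be readable on these arrays. The leukocyte marker list averaged 4.74 to 4.76 in siKlf4 arrays with TGFβ, 4.55 to 4.58 in siControl arrays with TGFβ, 4.77 to 4.82 in siKlf4 arrays without TGFβ and 4.68 to 4.72 in siControl arrays without TGFβ. Of its 7 measured genes, 3 (Cd3e, Cd68 and Csf1r) lay above the odorant receptor landmark and Ptprc, the defining one, did not, and their part in the Serpinb9 result was not tested.

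To show how alike the copies are at their starts, promoter windows from 250 bases before to 50 after the annotated start were taken from RefSeq (mouse build GRCm38.p6), which held windows for 42 of the 52 members. Those of Serpinb9, of its neighbour Serpinb9b and of Serpinb9e, the member with the largest measured difference, read as follows on the coding strand, with capitals marking CACCC or its reverse complement GGGTG, the core of the motif that Klf factors bind.
Serpinb9 (chr13:33004291-33004590, + strand): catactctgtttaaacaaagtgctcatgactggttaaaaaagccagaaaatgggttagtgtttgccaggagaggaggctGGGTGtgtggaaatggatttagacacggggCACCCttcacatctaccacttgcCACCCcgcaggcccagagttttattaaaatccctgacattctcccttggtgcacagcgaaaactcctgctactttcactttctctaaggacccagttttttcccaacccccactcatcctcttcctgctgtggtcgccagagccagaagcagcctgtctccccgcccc
Serpinb9b (chr13:33027164-33027463, + strand): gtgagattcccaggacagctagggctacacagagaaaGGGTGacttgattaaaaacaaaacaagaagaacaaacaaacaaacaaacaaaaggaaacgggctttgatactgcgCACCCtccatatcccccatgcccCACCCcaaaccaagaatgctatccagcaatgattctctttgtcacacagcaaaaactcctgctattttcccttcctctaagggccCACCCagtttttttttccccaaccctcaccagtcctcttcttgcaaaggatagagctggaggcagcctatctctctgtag
Serpinb9e (chr13:33249358-33249657, + strand): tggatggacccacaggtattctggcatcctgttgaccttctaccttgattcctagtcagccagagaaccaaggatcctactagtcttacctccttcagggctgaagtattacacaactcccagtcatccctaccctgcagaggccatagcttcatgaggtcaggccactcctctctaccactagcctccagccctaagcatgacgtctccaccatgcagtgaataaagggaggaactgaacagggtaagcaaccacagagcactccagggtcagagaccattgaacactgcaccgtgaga
The window of Serpinb9 held 3 such matches, that of Serpinb9b 4 and that of Serpinb9e none. In a global alignment, the Serpinb9 and Serpinb9b windows were 59.6% identical and the Serpinb9d and Serpinb9e windows 89.8%, whereas those of Serpinb9 and Serpinb9e were 47.0% identical, close to the 47.2% of Serpinb9 and Serpinb6b. Over the member windows, 27 of 50 held CACCC on either strand (54.0%), beside 57.5% of all 32851 RefSeq windows. A match describes these letters only.

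The Serpinb6 group moved in both directions. Serpinb6a, a cytosolic inhibitor of trypsin-like proteases and cathepsin G, was bright and nearly level, with 11.27 and 11.20 in siKlf4 arrays with TGFβ and 11.20 and 11.22 in siControl arrays with TGFβ. In the absence of TGFβ, it had 11.43 and 11.42 in siKlf4 arrays and 11.36 and 11.40 in siControl arrays. The 95% intervals of its difference, from -0.15 to 0.20 with TGFβ and from -0.12 to 0.22 without, hold no change beyond 0.22 on the log2 scale. Serpinb6b, a copy of it that lies beside Serpinb9, had 10.003 and 10.03 in siKlf4 arrays with TGFβ, against 9.44 and 9.42 in siControl arrays with TGFβ (difference 0.59, SE 0.08, limma adjusted p = 0.000754). Its values without TGFβ were 10.03 and 9.95 in siKlf4 arrays, against 9.11 and 8.95 in siControl arrays, a 1.95-fold increase (difference 0.96, SE 0.08, limma adjusted p = 5.46e-05). As for Serpinb9b, the siKlf4 arrays were at one level whether or not TGFβ was given, and TGFβ raised Serpinb6b in siControl arrays by 0.40 (limma adjusted p = 0.0159). That TGFβ call was lost without the second siControl array (adjusted p = 0.073) or without the first or second siControl array with TGFβ (adjusted p = 0.104 and 0.0893).

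Serpinb6c, another copy, went the other way. It had 3.88 and 3.50 in siKlf4 arrays with TGFβ, against 4.75 and 5.12 in siControl arrays with TGFβ, and was at least 1.46-fold lower (measured difference -1.24, SE 0.15, limma adjusted p = 0.000211). Without TGFβ, it had 3.75 and 3.78 in siKlf4 arrays, against 4.77 and 4.88 in siControl arrays, and was at least 1.36-fold lower (measured difference -1.06, SE 0.15, limma adjusted p = 0.000776). The siControl arrays lay above the odorant receptor landmark and the siKlf4 arrays below it. Serpinb6d and Serpinb6e were dim and did not pass, with differences between -0.15 and 0.02.

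The Serpinb1 group, copies of the leukocyte elastase inhibitor, was dim. Serpinb1a had 3.31 and 3.48 in siKlf4 arrays without TGFβ, against 3.75 and 4.17 in siControl arrays without TGFβ (difference -0.56, SE 0.14, limma adjusted p = 0.0177). The difference was -0.35 without the second siControl array, and the call was lost (limma adjusted p = 0.087), as it was without the first siKlf4 array (limma adjusted p = 0.0991). With TGFβ, Serpinb1a had 3.58 and 3.56 in siKlf4 arrays and 3.82 and 3.63 in siControl arrays, which did not pass (limma adjusted p = 0.511). Serpinb1b, named after its values were seen, was higher with TGFβ by 0.32 (limma adjusted p = 0.0467) and differed by -0.03 without. Its call with TGFβ was lost under the replicate block (limma adjusted p = 0.0591), in the fit on the 4 arrays compared (0.0613), with trend and robust options (0.0504), by the one-way analysis of variance (0.132) and without any 1 of 7 of the 8 arrays (from 0.0571 to 0.33). Without the second siControl array with TGFβ its difference was 0.19. Serpinb1c did not pass.

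The other 10 clade B serpins, among them Serpinb5, the mammary epithelial serpin maspin, did not pass in any of the 4 group comparisons in the fit on all arrays. Maspin had 3.54 and 3.55 in siKlf4 arrays with TGFβ and 3.49 and 3.44 in siControl arrays with TGFβ, below the odorant receptor landmark in all arrays. Serpinb8, an inhibitor of furin in humans, came nearest, with 3.99 and 3.98 in siKlf4 arrays with TGFβ and 3.62 and 3.78 in siControl arrays with TGFβ. Its difference of 0.29 did not pass (limma adjusted p = 0.124), and without TGFβ the difference was 0.28 (limma adjusted p = 0.143). It passed with TGFβ in the fit on the 4 arrays compared (limma adjusted p = 0.0362) and without either siKlf4 array that had no TGFβ (0.0394 each), and it passed without TGFβ when the second siKlf4 array was left out (difference 0.46, limma adjusted p = 0.0185). The differences of these 10 genes ran between -0.13 and 0.29 with TGFβ and between -0.14 and 0.28 without.

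The antitrypsins fell. Serpina1 genes are mouse copies of α1-antitrypsin, the secreted inhibitor of neutrophil elastase. Serpina1c had 5.32 and 6.40 in siKlf4 arrays with TGFβ, against 8.44 and 8.73 in siControl arrays with TGFβ, and was 6.63-fold lower (difference -2.73, SE 0.28, limma adjusted p = 9.64e-05). In the absence of TGFβ, it had 6.92 and 6.65 in siKlf4 arrays, against 8.71 and 8.63 in siControl arrays, and was 3.69-fold lower (difference -1.88, SE 0.28, limma adjusted p = 0.00126), a call that the one-way analysis of variance did not make (adjusted p = 0.0597). The siKlf4 arrays lay below the siControl arrays in both pairs, but the 2 siKlf4 arrays with TGFβ were 1.08 apart, the widest gap between replicates shown here. Serpina1d had 3.63 and 3.40 in siKlf4 arrays with TGFβ, against 4.67 and 4.70 in siControl arrays with TGFβ (difference -1.17, SE 0.09, limma adjusted p = 1.83e-05). Without TGFβ, Serpina1d had 3.80 and 3.85 in siKlf4 arrays, against 4.61 and 4.54 in siControl arrays (difference -0.75, SE 0.09, limma adjusted p = 0.000426). The siKlf4 arrays were also the lower ones throughout, below the landmark in both pairs, so the fall was at least 1.23-fold with TGFβ and at least 1.138-fold without.

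Between TGFβ and none, the siControl arrays hardly differed in either antitrypsin (-0.08 for Serpina1c, limma adjusted p = 0.908, and 0.11 for Serpina1d, limma adjusted p = 0.546). The siKlf4 arrays were lower with TGFβ by differences of -0.93 for Serpina1c and -0.31 for Serpina1d, which did not pass (limma adjusted p = 0.0669 and 0.0622). Serpina1f, expressed in epididymis, was dim and did not pass. Beside the antitrypsins, the hepatocyte marker list averaged 3.73 to 3.87 in siKlf4 arrays with TGFβ, 4.03 to 4.12 in siControl arrays with TGFβ, 3.83 to 3.93 in siKlf4 arrays without TGFβ and 4.05 to 4.14 in siControl arrays without TGFβ. 2 of its 6 genes, Apoa1 and Tat, lay above the odorant receptor landmark, while Alb, the defining one, did not, and the part of these genes in the result was not tested.

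The windows of Serpina1c and Serpina1d are shown because the 2 genes were lower together, again on the coding strand, with capitals for CACCC or GGGTG and for TGANTCA (N is any base, and the motif reads the same on both strands), the motif of AP-1 factors.
Serpina1c (chr12:103904901-103905200, - strand): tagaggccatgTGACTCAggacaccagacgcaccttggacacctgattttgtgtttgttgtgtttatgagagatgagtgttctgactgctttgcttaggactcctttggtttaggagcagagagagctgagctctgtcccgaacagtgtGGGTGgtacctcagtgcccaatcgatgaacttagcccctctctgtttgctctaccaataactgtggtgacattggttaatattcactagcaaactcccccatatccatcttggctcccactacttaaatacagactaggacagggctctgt
Serpina1d (chr12:103773584-103773883, - strand): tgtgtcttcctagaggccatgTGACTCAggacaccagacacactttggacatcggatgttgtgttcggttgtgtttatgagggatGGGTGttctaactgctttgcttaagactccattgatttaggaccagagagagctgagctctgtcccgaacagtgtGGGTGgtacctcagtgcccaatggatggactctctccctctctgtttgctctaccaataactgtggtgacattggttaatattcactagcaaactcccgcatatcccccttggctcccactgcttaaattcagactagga
They were 85.2% identical, and each held 1 TGANTCA match. The Serpina1c window held 1 CACCC match and the Serpina1d window 2. Over the member windows, 11 of 50 held TGANTCA (22.0%), beside 7.81% of all RefSeq windows. Beside Serpina1c and Serpina1d, these were windows of Plaur and of clade B genes on chromosome 1, where Serpinb2 counted with 2 windows. Near copies such as Serpina1c and Serpina1d share their letters, and the reason for the share was not tested.

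Of the other 11 clade A serpins none passed by limma on all arrays in any group comparison, and between siKlf4 and siControl 1 of them, Serpina12, had an unadjusted p under 0.05 (with TGFβ). They include Serpina3n, an acute-phase inhibitor, Serpina6 and Serpina7, which carry corticosteroids and thyroxine in blood, and Serpina10, which inhibits activated coagulation factor X with protein Z. Their differences ran between -0.24 and 0.22 with TGFβ and between -0.17 and 0.27 without. Serpina12, vaspin, stood at the lower end with TGFβ, with 3.37 and 3.40 in siKlf4 arrays and 3.66 and 3.60 in siControl arrays (limma adjusted p = 0.0746), and it passed in the fit on the 4 arrays compared (limma adjusted p = 0.0397) and without either siKlf4 array that had no TGFβ (0.0469 each).

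Among the other members of clades C to I, Serpinf1 alone passed. It encodes pigment epithelium-derived factor, a secreted serpin that inhibits no protease and curbs the growth of blood vessels. Serpinf1 had 5.23 and 5.14 in siKlf4 arrays with TGFβ, against 4.75 and 4.86 in siControl arrays with TGFβ (difference 0.38, SE 0.11, limma adjusted p = 0.0382). Its values without TGFβ were 5.001 and 5.31 in siKlf4 arrays, against 4.58 and 4.71 in siControl arrays (difference 0.51, SE 0.11, limma adjusted p = 0.0112). Every siKlf4 array was the higher one, but the call with TGFβ was lost without any single array of the TGFβ-treated groups, at adjusted p-values from 0.0846 to 0.209. The call without TGFβ was lost without the first siControl array (adjusted p = 0.0689) or without the second siKlf4 array (adjusted p = 0.0652). Serpinf2, its neighbour in name and on chromosome 11, lay on the other side of 0, as given above.

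Serpinh1, the collagen chaperone HSP47, had 4.58 and 4.69 in siKlf4 arrays with TGFβ and 4.81 and 4.94 in siControl arrays with TGFβ, a difference of -0.24 that did not pass (limma adjusted p = 0.405). Without TGFβ it had 4.48 and 4.89 in siKlf4 arrays and 4.45 and 4.92 in siControl arrays. The arrays of a group differed by up to 0.47, more than the difference between the groups without TGFβ. The 95% intervals of the Serpinh1 difference ran from -0.62 to 0.15 with TGFβ and from -0.38 to 0.39 without, and its mean level was 4.72. Of the 15 measured genes of a collagen list, 7 (46.7%) were higher in each comparison and the other 8 did not pass. Of all genes, 12.3% were called higher with TGFβ and 9.98% without. The largest difference was that of Col12a1 (2.56 with TGFβ and 1.78 without, limma adjusted p = 2.57e-07 and 1.69e-06). Col7a1, the collagen of anchoring fibrils, was higher by 1.24 and 1.73 (limma adjusted p = 1.97e-05 and 5.14e-06), and Col4a1, of basement membranes, by 1.44 and 1.38 (limma adjusted p = 4.19e-06 and 9.27e-06). The median over the 15 was 0.13 with TGFβ and 0.38 without. Antithrombin (Serpinc1), heparin cofactor II (Serpind1), the C1 inhibitor (Serping1), Serpine3 and Serpini2 did not pass.

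The members were then set in their order along the chromosomes, taken from RefSeq. The clade B genes of chromosome 13 run Serpinb1a, Serpinb1c, Serpinb6b, Serpinb9, Serpinb9b, Serpinb1b, Serpinb9c, Serpinb9d, Serpinb9e, then 3 further Serpinb9 copies not analysed here, then Serpinb6d, Serpinb6e, Serpinb6c and Serpinb6a. Of the 13 measured, 8 passed with TGFβ and 7 without, beside 24.2% and 19.7% of all genes. The stretch from Serpinb6b to Serpinb9e was bounded by the first and last genes that were higher. That no gene of the row outside it was higher follows from this choice. With TGFβ all 7 measured genes of the stretch were higher. Without TGFβ, Serpinb1b and Serpinb9d did not pass (differences -0.03 and 0.21). Probe sets of near copies can bind each other's RNA, so these genes are not separate observations. For 1 of the 7, Serpinb1b, the call was lost under several alternatives, as given above, which leaves 6. Serpinb6c, the gene of this row with the largest measured fall, lies next to last.

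**Figure D3:**
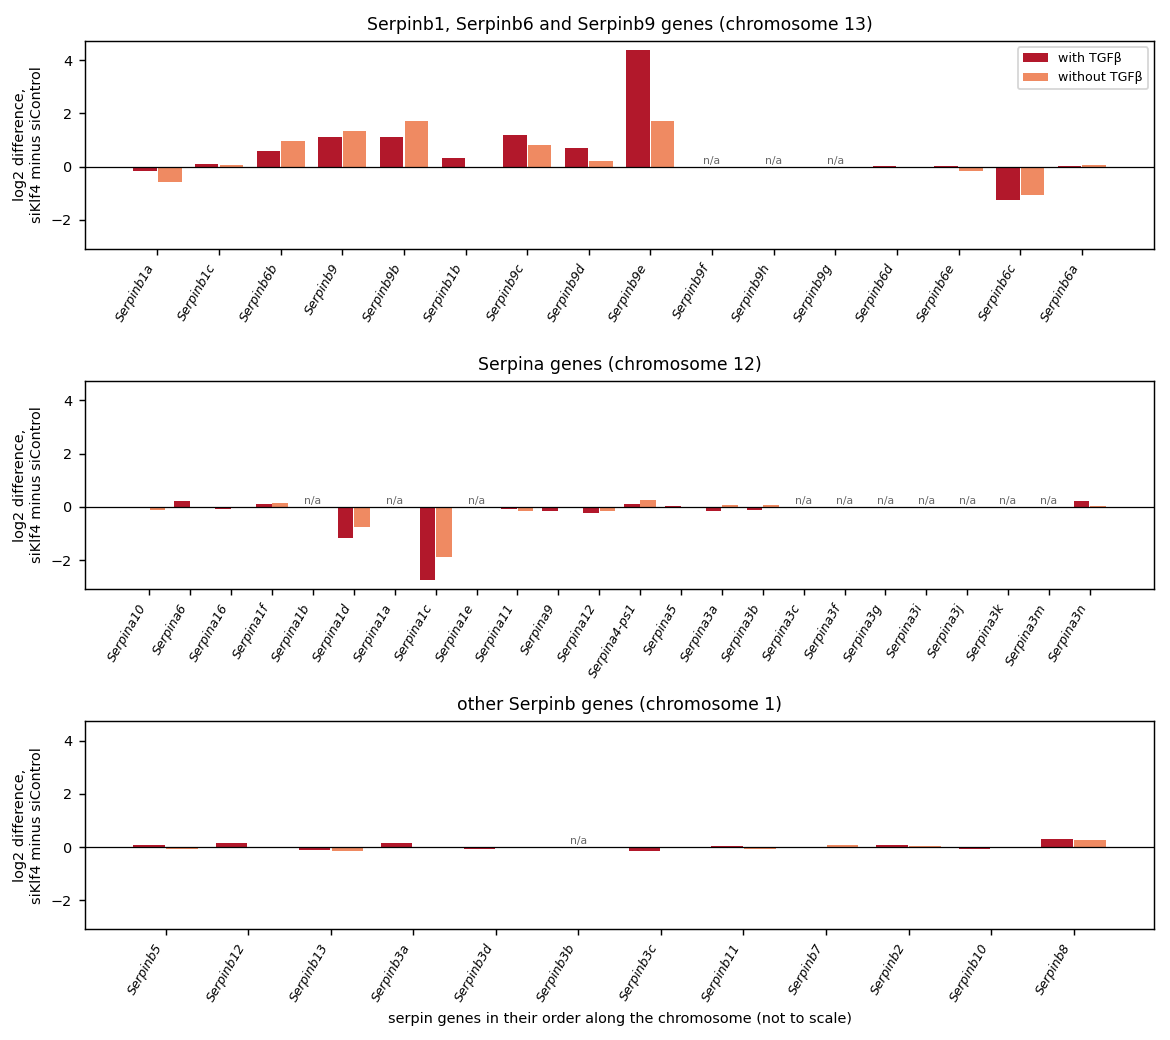
Log2 difference, siKlf4 minus siControl (y axis), of serpin genes in their order along chromosomes 13, 12 and 1 (x axis, ranks, not to scale), with TGFβ (dark) and without (light). Genes marked n/a were not analysed here. On chromosome 13 the bars from Serpinb6b to Serpinb9e point up with TGFβ, on chromosome 12 the bars of Serpina1d and Serpina1c stand apart, and on chromosome 1 no gene passed.

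Genes on either side of the row were examined in the same way. Before it, Gmds differed by 0.00 with TGFβ and -0.03 without, and Wrnip1 by -0.36 with TGFβ (limma adjusted p = 0.016) and -0.03 without. After it, Nqo2, a quinone reductase, was lower, at -0.91 with TGFβ and -0.71 without (limma adjusted p = 0.000223 and 0.00128). Bphl, also after it, was lower with TGFβ, at -0.71 (limma adjusted p = 0.0135). Without TGFβ, Bphl differed by -0.53, which did not pass (limma adjusted p = 0.0608). Mylk4 before the row and Tubb2a after it did not pass in either comparison. The next 2 counts stand beside 24.2% of all genes called with TGFβ and 19.7% without. Of the 14 measured clade A genes on chromosome 12, Serpina1d and Serpina1c passed and the other 12 did not. Further Serpina genes of that row, among them Serpina1a, Serpina1b and Serpina1e, were not analysed here. Of the 11 measured clade B genes on chromosome 1, which include Serpinb2 and maspin, 0 passed by limma on all arrays in either comparison, and 1, Serpinb8, had an unadjusted p under 0.05 in each (0.038 with TGFβ and 0.039 without). The ordinary analysis of variance called 0 of them as well.

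TGFβ alone touched few members. In siControl arrays, 2 were higher with TGFβ than without (Serpinb9b and Serpinb6b) and 2 lower (Plaur and Serpini1), which is 7.69% of members beside 12.5% of all genes (5.81% higher and 6.65% lower). In siKlf4 arrays, 3 were higher (Serpinb9e, Serpinb9d and Serpinb9c) and 0 lower, which is 5.77% beside 12.9% (6.01% higher and 6.87% lower). No member fell there by limma, while 8 members in all had an unadjusted p under 0.05, among them Serpina1c and Serpina1d, which were lower. The ordinary analysis of variance did not call Serpini1 in siControl arrays (adjusted p = 0.138) nor Serpinb9d and Serpinb9c in siKlf4 arrays (adjusted p = 0.0609 and 0.231), and it called 1 lower there, Serpinb6a (-0.19, adjusted p = 0.0417). These comparisons share their arrays with the siKlf4 comparisons, so that a low siControl array enters both.

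The partners of these genes were described from lists of known function, and their counts stand beside the 24.2% of all genes called with TGFβ (12.3% higher and 11.9% lower) and the 19.7% called without (9.98% higher and 9.71% lower). Of 16 measured genes that bind or clear plasminogen, its activators or their receptor at the cell surface, 7 were higher and 1 lower in siKlf4 arrays with TGFβ, and 6 higher and 2 lower without. The integrin chains that pair with the urokinase receptor or bind its ligands led, Itga5 at 3.07 with TGFβ and 3.42 without (limma adjusted p = 4.48e-07 and 6.27e-07) and Itgb3 at 2.37 and 2.46 (limma adjusted p = 7.05e-07 and 1.06e-06). Vldlr, an endocytic receptor that clears activator and inhibitor complexes, was lower without TGFβ, at -0.99 (limma adjusted p = 5.65e-05). Plgrkt, a plasminogen receptor, was lower, at -0.55 with TGFβ and -0.45 without (limma adjusted p = 0.00468 and 0.0165). The list's median difference was 0.16 with TGFβ and 0.12 without.

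Of 15 measured substrates of plasmin or of its activators, 8 were higher and 2 lower with TGFβ, and 6 higher and 2 lower without, with medians of 0.39 and 0.08. Thbs1, the matrix protein thrombospondin, was higher by 3.02 with TGFβ and 3.48 without (limma adjusted p = 2.43e-07 and 3.57e-07). Ltbp1, which tethers latent TGFβ to matrix, was higher by 3.45 and 2.44 (limma adjusted p = 1.7e-07 and 6.55e-07). Mmp13, a collagenase, was lower, at -1.63 and -1.93 (limma adjusted p = 2.13e-06 and 1.65e-06), and Fgb, the fibrinogen beta chain, was lower at -2.39 and -1.38 (limma adjusted p = 5.81e-07 and 1.48e-05).

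Coagulation genes showed 6 higher and 1 lower of 20 measured in both comparisons, which is 35% called and 30% higher, beside 24.2% and 12.3% of all genes with TGFβ and 19.7% and 9.98% without. F3, tissue factor, which starts clotting, was higher by 1.92 with TGFβ and 1.58 without (limma adjusted p = 1.98e-05 and 0.000102). F2r, the thrombin receptor, was higher by 0.68 and 1.08 (limma adjusted p = 0.00017 and 1.66e-05), and Proc, protein C, was lower, at -0.37 and -0.35 (limma adjusted p = 0.0335 and 0.0493). The median of this list was -0.06 with TGFβ and 0.06 without.

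Protease inhibitors outside the serpin family, 12 measured, divided into 2 higher and 3 lower with TGFβ and 3 higher and 3 lower without. Tfpi, the tissue factor pathway inhibitor, also counted among the coagulation genes, was higher by 0.78 and 0.50 (limma adjusted p = 0.00254 and 0.0322), and Wfdc2 was lower, at -0.95 and -0.98 (limma adjusted p = 0.000106 and 0.00013). Of 23 proteases that serpins inhibit or that share their cells, 3 were higher and 2 lower in both comparisons, and these 21.7% lay near the 24.2% and 19.7% of all genes. Ctsl, the lysosomal cathepsin L, was higher by 1.75 and 1.15 (limma adjusted p = 8.47e-07 and 1.26e-05), Furin by 1.06 and 0.92 (limma adjusted p = 1.05e-05 and 4.12e-05), and C1s1, a complement protease, was lower, at -1.10 and -0.67 (limma adjusted p = 0.000101 and 0.00271). The medians were -0.10 with TGFβ and -0.06 without for the inhibitors, and -0.05 and 0.01 for the proteases.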

How the data were processed

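Total RNA of NMuMG cells was labelled and hybridised to 8 Affymetrix whole-transcript gene arrays, and groups were taken from the submitters' labels. The authors deposited log2 values, 1 per probe set and array, which they obtained by RMA. The processing notes name oligo 1.14.0, and the log2 base was inferred from the range of the values, as it is not given in the sources used here. The depth of such values is unknown, no detection call is given, and the number of arrays limits the precision. Of 34760 probe sets, 21640 had 1 gene symbol in the platform annotation, 1321 had several and 11799 were not listed. Where a gene had several, only its brightest by mean was used, which gave 19937 genes. No member had more than 1 probe set, 5 probe sets that name a serpin beside other genes were left out, and all 52 members matched a RefSeq gene by Entrez ID.

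Groups were compared with limma 3.58.1 in R 4.3.3, by lmFit on all 8 arrays with a mean for each group, followed by eBayes. P-values are two-sided, with Benjamini-Hochberg adjustment across the 19937 genes and a threshold of 0.05. Contrasts were siKlf4 against siControl with and without TGFβ, TGFβ against none in siKlf4 and in siControl, and the difference between the 2 siKlf4 effects. The fit was tested on simulated data. The members, gene lists and tests were chosen with earlier results of these data known. Named are Klf4, the core of the plasminogen system, up to 8 members each way per siKlf4 comparison and up to 5 each way otherwise that passed with arrays that do not overlap (a condition not applied to the difference between effects), up to 4 counter-examples per role and up to 4 genes per list. 2 genes of that core are not reported here.

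Each count and named result was recomputed under these alternatives: a block for the replicate number, a fit restricted to the 4 arrays compared, a trended and robust eBayes, the one-way analysis of variance that the study's methods name, quantile normalization on top of RMA, a filter that drops the dimmest 30% of genes, averaging of a gene's probe sets, and omission of single arrays, in which a lone array takes its spread from the other groups. Promoter windows came from RefSeq and were aligned with Biopython 1.88.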

Additional observations from a re-analysis of the deposited data

Results flagged for a closer look

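The siKlf4 effect on Serpinb9e differed between the presence and the absence of TGFβ by a test of the difference itself. The effect was 4.37 on the log2 scale with TGFβ and 1.73 without, a difference of 2.64 (SE 0.28, limma adjusted p = 0.00611). The group means were 8.28 in siKlf4 arrays with TGFβ and 3.90 in siControl arrays with TGFβ, and 5.84 in siKlf4 arrays and 4.11 in siControl arrays without TGFβ. Both siControl means lay below the odorant receptor landmark of 4.39, so these are differences of measured values, and with siControl set at the landmark the effects were at least 3.89 and 1.45. The siKlf4 arrays with and without TGFβ, all above the landmark, differed by 2.44. With single arrays left out, the difference lay between 2.27 and 3.02, with limma adjusted p-values between 0.00147 and 0.0482. By the unmoderated t-test of the same contrast, called the one-way analysis of variance here, the adjusted p was 0.155.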

How the results depend on the processing

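The cause of each change below was not tested. No named member changed direction in a way that either fit called. Of the member counts, those with TGFβ between siKlf4 and siControl stayed within 1.5 times under every alternative, with 7 to 9 higher and 3 to 4 lower when single arrays were left out. Without TGFβ, leaving out single arrays gave 6 to 7 higher and 3 to 4 lower. The count lower without TGFβ was 2 by the one-way analysis of variance and 2 without the dimmest 30% of genes, which left 18 members in the fit. For TGFβ in siControl arrays, the analysis of variance gave 1 higher and 1 lower and the fit on only the 4 arrays compared gave 1 lower, and leaving out single arrays gave 0 to 3 higher and 1 to 2 lower. For TGFβ in siKlf4 arrays, the analysis of variance gave 1 higher and 1 lower and eBayes with trend and robust options gave 1 lower (Serpinb6a in both), and leaving out single arrays gave 2 to 3 higher and 0 to 1 lower. For the difference between the siKlf4 effects, trend and robust options gave 2 higher, adding Plaur (adjusted p = 0.00712), and 2 lower, Serpinb9b and Serpinb6b (adjusted p = 0.0189 and 0.0318). The analysis of variance gave 0 higher, and leaving out single arrays 1 higher and 0 lower. Over all genes, limma called 304 for that difference, 760 with trend and robust options and 28 to 214 with single arrays left out, while the analysis of variance called 0 after adjustment and 2400 at an unadjusted p under 0.05. For TGFβ it called 2569 genes in siKlf4 arrays and 2484 in siControl arrays, where the analysis of variance called 1702 and 1489 and leaving out single arrays gave 1274 to 2700 and 1090 to 2545. Of the single results under alternatives, 609 kept their side of the threshold and 37 lost it.

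The replicate numbers were not shown to pair the samples, since deviations of same-numbered arrays correlated by 0.38 between siKlf4 and siControl without TGFβ but by -0.05 to 0.04 otherwise. With the replicate block, limma called 4950 and 4031 genes for siKlf4 with and without TGFβ, where it called 4821 and 3926 without the block, and the member calls lost were Serpinb9c for TGFβ in siKlf4 arrays and Serpinb1b for siKlf4 with TGFβ (adjusted p = 0.0627 and 0.0591), while Serpinb9 was gained for TGFβ in siControl arrays (0.0411).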
